A study of Mus musculus with 6 samples.

Results

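The genes described here are the protein-coding genes of mouse chromosome 12 whose start lies below position 9200000 of GRCm38, the stretch that holds Adcy3 (4133103 to 4213525, plus strand). Position and coding status came from GENCODE M21, and no measured value enters this rule. The genes were, however, chosen with earlier results of these data known. Adcy3 itself and its neighbour Dnajc27 were left out. In the deposited table of 54385 rows, 33 rows met this rule, and they span 3247428 to 9041988. Polyadenylated RNA came from brown adipose tissue, the heat-producing fat, and the mice were C57BL/6N, 20 weeks old and fed chow. The groups were ADCY3∆AT (3 libraries), the knockout that the labels also name Adcy3-AT KO, and wild type or WT (3 libraries). The series title names a truncated adenylyl cyclase 3 that cold induces. The sources used here do not say how the allele was made or in which cells it acts. In a whole tissue, fewer cells of a type and less RNA per cell cannot be told apart.

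Adcy3 encodes an adenylyl cyclase, an enzyme of the cell membrane that makes cyclic AMP, the messenger through which noradrenaline turns on heat production in brown fat. Its neighbours on the chromosome do not form a pathway. They include regulators of chromatin, of vesicle traffic and of lipid handling, and what they share is a stretch of DNA. Genes close to an engineered allele are commonly examined because sequence linked to the allele is inherited with it and because regulatory elements can act on more than one promoter.

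Of the 33 genes, 7 lie on the lower-coordinate side of Adcy3, which is upstream of its start, 1 (Cenpo) overlaps its end on the opposite strand, and 25 lie on the higher-coordinate side. The gap between gene bodies is under 1 Mb for 21 and larger for 12. Between Klhl29 and Apob there is a stretch of 2601966 bases without one of these genes. Libraries held 14799779 to 19592156 estimated counts in ADCY3∆AT and 13758492 to 17489589 in WT. Levels are given in CPM, counts scaled to a common library size with factors from the trimmed mean of M-values (TMM). The Adcy3 row held 167.5, 194.9 and 239.8 CPM in ADCY3∆AT and 247.7, 209.1 and 166.3 CPM in WT. The separate row of the table that ends in the same digits held 1.27, 0 and 0 CPM in ADCY3∆AT and 214.6, 197.0 and 117.9 CPM in WT, and the table does not say what it stands for. All 10 brown adipocyte markers were tested and 0 were called by edgeR, beside 4.30% of all genes tested. Their summed level was 15890 to 16690 CPM in ADCY3∆AT and 17590 to 17860 CPM in WT. Fabp4 and Ucp1, the most abundant of the 10, had overlapping libraries. Ppargc1a and Cpt1b were higher in every ADCY3∆AT library than in any WT library (2 of 10, beside 15.1% of all genes tested). In the same way 0 were lower, beside 13.9%. Of 17 skeletal muscle markers, 14 were tested and 8 were called lower, beside 1.67% of all genes tested. None of the 17 was at 0 in every library. Their sum was 54.0 to 57.2 CPM in ADCY3∆AT and 77.8 to 833.5 CPM in WT, highest in WT replicate 3. In ADCY3∆AT, Myl1 averaged 45.3 CPM and Eno3 7.24 CPM, and each other muscle marker at most 0.636 CPM. The part of muscle RNA in the values of the genes below was not tested.

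None of the genes near Adcy3 was called different between the genotypes. The threshold was an adjusted p under 0.05 in the quasi-likelihood test of edgeR, with adjustment over all genes tested. In all, 27 of the 33 passed the filter on low counts and were tested, and 0 were called, where 4.30% of the 14332 genes tested were called. None was called higher in ADCY3∆AT, beside 2.63% of all genes tested, and none lower, beside 1.67%. DESeq2 called 0 of the 26 to which it gave an adjusted p (7.24% of all genes with one), and limma-voom called 0 of 27 (3.66% of all genes). At an unadjusted p under 0.05 there were 7 of 27 (25.9%), beside 22.6% of all genes tested. Of the 27, 5 were higher in ADCY3∆AT at this p, beside 12.4% of all genes, and 2 were lower, beside 10.2% of all genes. The libraries of the genotypes did not overlap for 6 of 27 (22.2%), beside 29.0% of all genes tested. Both shares lie near those of the whole table, so neither count is a result about these genes. At a share of 4.30%, few calls would fall among 27 genes, so the 0 called is no result about them either. On the rest of chromosome 12, 20 of 394 protein-coding genes tested were called, which is 5.08%.

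**Figure D1:**
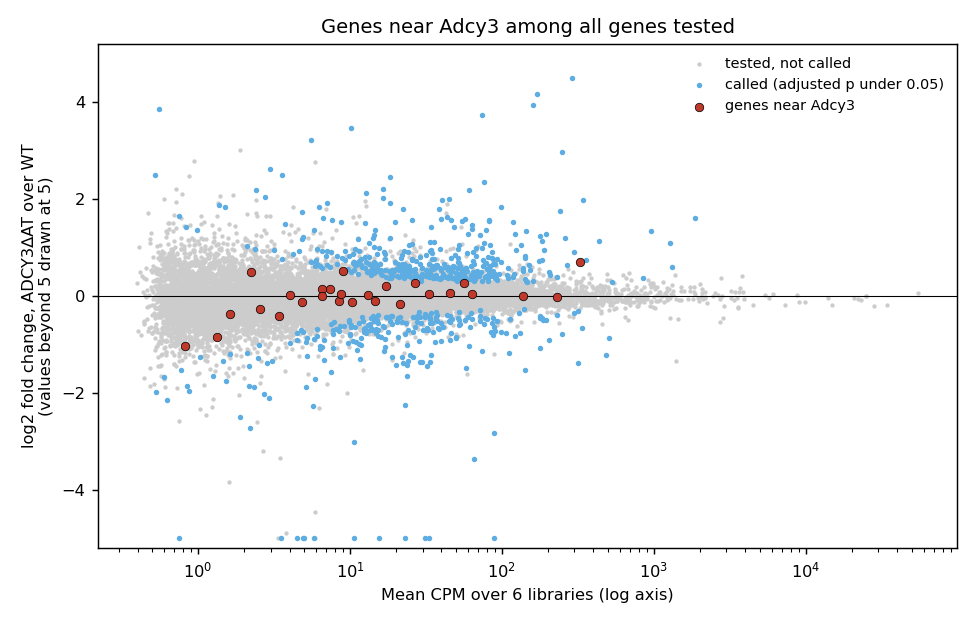
Log2 fold change (ADCY3∆AT over WT) of each tested gene against its mean CPM over the 6 libraries, on a log axis, with called genes in blue and the 27 tested genes near Adcy3 in red. Values beyond 5 are drawn at 5. The red points lie between -1.02 and 0.70, and 0 of them are called.

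Most differences were small. Log2 fold changes (ADCY3∆AT over WT) ran from -1.02 for Fam228a to 0.70 for Rhob, with a median of 0.03, against a median of -0.01 over all genes tested. The median size without sign was 0.14, against 0.18 over all genes tested and 0.16 on the rest of chromosome 12. The fold change was positive for 16 and negative for 11 of the genes. The 95% interval lay wholly inside a 2-fold change for 23 of the 27, beside 77.8% of all genes tested, and inside a 1.5-fold change for 17, beside 53.3% of all genes tested. The 4 genes whose interval reached past 2-fold were Fam228a, Pfn4, Klhl29 and Rhob. Fam228a, Pfn4 and Klhl29 had at most 38 counts in a library, and the SD of Rhob among ADCY3∆AT libraries was 144 CPM around a mean of 405.

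**Figure D2:**
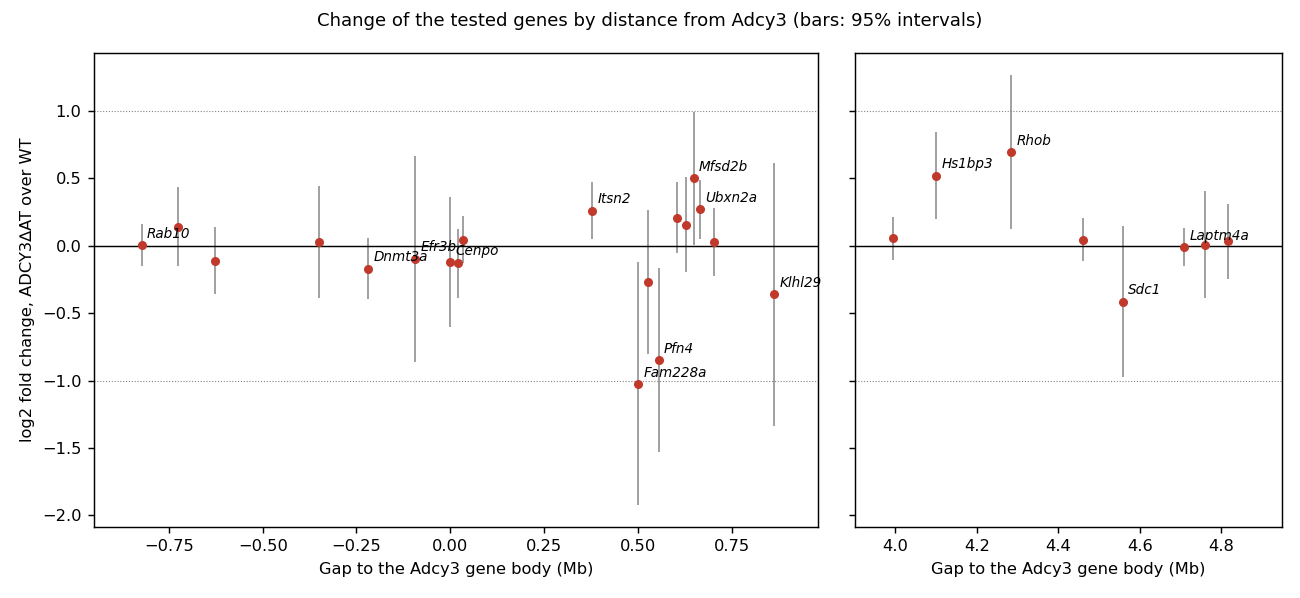
Log2 fold change (ADCY3∆AT over WT, points) with its 95% interval (bars) of the 27 tested genes against the gap in Mb between each gene body and that of Adcy3, with negative distances on the lower-coordinate side and dotted lines at a 2-fold change, in separate panels for gaps under and over 1 Mb. The 7 tested genes closest to Adcy3, with gaps under 0.5 Mb, lie between -0.17 and 0.26.

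The size of the difference was compared with the distance from Adcy3. Over the 27 tested genes the gap and the size without sign had a Spearman rho of -0.134 and a Pearson r of -0.0494. Over the 19 within 1 Mb the same measures were 0.142 and 0.196, of the other sign. With the sign kept, the 27 genes had a rho of 0.253 and an r of 0.232, and the 19 within 1 Mb a rho of 0.225 and an r of 0.0612. Measured between start sites, the rho with the sign kept was 0.258 over the 27 and 0.41 over the 18 within 1 Mb. These values are descriptions, since all the genes were read in the same 6 libraries. The rho with the sign kept over the 27 was 0.109 without WT replicate 1. The 7 tested genes within 0.5 Mb had a median log2 fold change of -0.10. It was 0.016 for the 12 tested between 0.5 and 1 Mb and 0.039 for the 8 tested beyond 1 Mb. Without the sign the medians were 0.12 within 0.5 Mb, 0.24 between 0.5 and 1 Mb and 0.050 beyond 1 Mb, highest in the middle stretch. The median level was lowest there, at 6.97 CPM, beside 10.3 CPM within 0.5 Mb and 27.3 CPM beyond 1 Mb. The part of level in these sizes was not tested. All 7 tested genes within 0.5 Mb had intervals inside a 2-fold change. Pomc, with a gap of 172.5 kb, was not tested and has no interval.

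The nearest gene, Cenpo (ENSMUSG00000020652, chromosome 12, 4196004 to 4234294, minus strand), encodes a centromere protein that helps chromosomes attach to the spindle. It held 4.68, 5.11 and 4.10 CPM in ADCY3∆AT and 6.01, 5.395 and 3.72 CPM in WT. The knockout values lay within the range of the WT values, and the log2 fold change was -0.12 (standard error 0.21, 95% interval -0.60 to 0.36, adjusted p = 0.785 in edgeR). Cenpo shares 17522 bases of its gene body and 1380 bases of annotated exon with Adcy3, on the opposite strand. No source used here says whether counting used the strand. If it did not, reads of the shared exons would match both genes, and their division would rest on the estimate of counts. The other end of Cenpo shares 268 bases, 252 of them exon, with Ptrhd1, which has a domain named for peptidyl-tRNA hydrolases, and the pair is read in opposite directions. Ptrhd1 held 9.63, 10.2 and 9.72 CPM in ADCY3∆AT and 11.4, 9.53 and 11.3 CPM in WT, a log2 fold change of -0.13 (standard error 0.11, adjusted p = 0.537 in edgeR). Its groups overlapped, as did those of Cenpo. Ptrhd1 also shares 872 exon bases with a processed pseudogene, Gm29696, on the same strand. Reads there would match both, whether or not counting used the strand.

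The group of chromatin and transcription regulators (4 genes, 4 tested, 0 called) had log2 fold changes between -0.17 and 0.04, and the intervals of all 4 lay inside a 1.5-fold change. Ncoa1, or SRC-1, a coactivator of nuclear receptors that begins the block downstream of Ptrhd1, held 33.2, 35.7 and 31.6 CPM in ADCY3∆AT and 32.5, 33.3 and 31.8 CPM in WT. Its log2 fold change was 0.04 (95% interval -0.13 to 0.22, adjusted p = 0.788 in edgeR). Dnmt3a, which sets new DNA methylation marks, held 17.9, 22.3 and 20.5 CPM in ADCY3∆AT and 23.8, 21.95 and 22.4 CPM in WT. Replicates 1 and 3 of ADCY3∆AT lay below every WT library and replicate 2 did not, and the log2 fold change was -0.17 (95% interval -0.40 to 0.06, adjusted p = 0.351 in edgeR). Asxl2, a partner of the histone deubiquitinase BAP1, averaged 14.04 ± 0.592 CPM in ADCY3∆AT and 15.2 ± 1.74 CPM in WT (SD, n = 3 each). Atad2b, a bromodomain protein, averaged 13.3 ± 1.602 CPM in ADCY3∆AT and 13.1 ± 0.273 CPM in WT (SD, n = 3 each).

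Promoter windows of 300 bases (250 before and 50 after a start site, from RefSeq on GRCm38.p6) were found for 30 of the 33 genes and searched on both strands for a site through which cyclic AMP is known to act and for the heat shock motif. The cyclic AMP response element TGACGTCA, where the factor CREB binds, was in 3 of the 39 windows of these genes and in 1.79% of all 32851 windows. The 3 belong to 2 genes, Atad2b and Ldah. The 2 windows of Ldah overlap and hold the same element, so the 3 windows hold 2 distinct sites. The core TGACG, which the full element holds on both strands, was in 11 of the 39 windows, from 10 of the genes, and in 20.8% of all windows. The heat shock motif TTCNNGAA was in 2 of the 39, from Asxl2 and Slc7a15, and in 8.52% of all windows. The RefSeq start of that Slc7a15 window is 59500 bases from the GENCODE one. The windows of Atad2b, Ldah and Ubxn2a are shown because the first pair carries the full element and Ubxn2a has the highest number of cores, 4. Capitals mark TGACGTCA and TGACG, the second also where it lies on the other strand and reads CGTCA, as in Ubxn2a. Atad2b lies at chr12:4917103-4917402 (plus strand), with the full element beginning 76 bases before the start site. Ldah lies at chr12:8207876-8208175 (plus strand), with the full element beginning 7 bases before its start site and 74 bases before the other start site that RefSeq gives for the gene. Ubxn2a lies at chr12:4907504-4907803 (minus strand), and its RefSeq start is 152 bases from the GENCODE one.
Atad2b: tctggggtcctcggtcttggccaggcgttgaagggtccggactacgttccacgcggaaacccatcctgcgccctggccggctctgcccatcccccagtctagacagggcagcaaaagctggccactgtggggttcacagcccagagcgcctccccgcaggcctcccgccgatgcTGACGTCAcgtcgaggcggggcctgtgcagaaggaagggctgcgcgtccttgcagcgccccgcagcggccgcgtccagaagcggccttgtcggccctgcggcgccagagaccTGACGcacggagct
Ldah: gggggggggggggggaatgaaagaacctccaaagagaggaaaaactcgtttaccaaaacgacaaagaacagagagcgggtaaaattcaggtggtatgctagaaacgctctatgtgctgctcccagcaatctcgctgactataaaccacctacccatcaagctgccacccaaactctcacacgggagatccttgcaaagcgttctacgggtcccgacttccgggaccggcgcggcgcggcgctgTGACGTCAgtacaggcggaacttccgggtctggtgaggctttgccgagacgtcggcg
Ubxn2a: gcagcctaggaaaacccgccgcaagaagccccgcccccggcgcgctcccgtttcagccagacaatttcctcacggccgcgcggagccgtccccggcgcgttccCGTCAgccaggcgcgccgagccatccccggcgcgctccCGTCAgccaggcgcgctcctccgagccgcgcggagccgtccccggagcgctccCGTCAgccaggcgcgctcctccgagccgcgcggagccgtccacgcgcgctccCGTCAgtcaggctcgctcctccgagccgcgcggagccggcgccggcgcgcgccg
Both genes with the full element had intervals inside a 1.5-fold change. For Atad2b the log2 fold change was 0.03 (95% interval -0.22 to 0.28, adjusted p = 0.910 in edgeR), and for Ldah it was 0.05 (95% interval -0.10 to 0.21, adjusted p = 0.688 in edgeR). A match of letters does not show that a factor binds there.

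**Figure D3:**
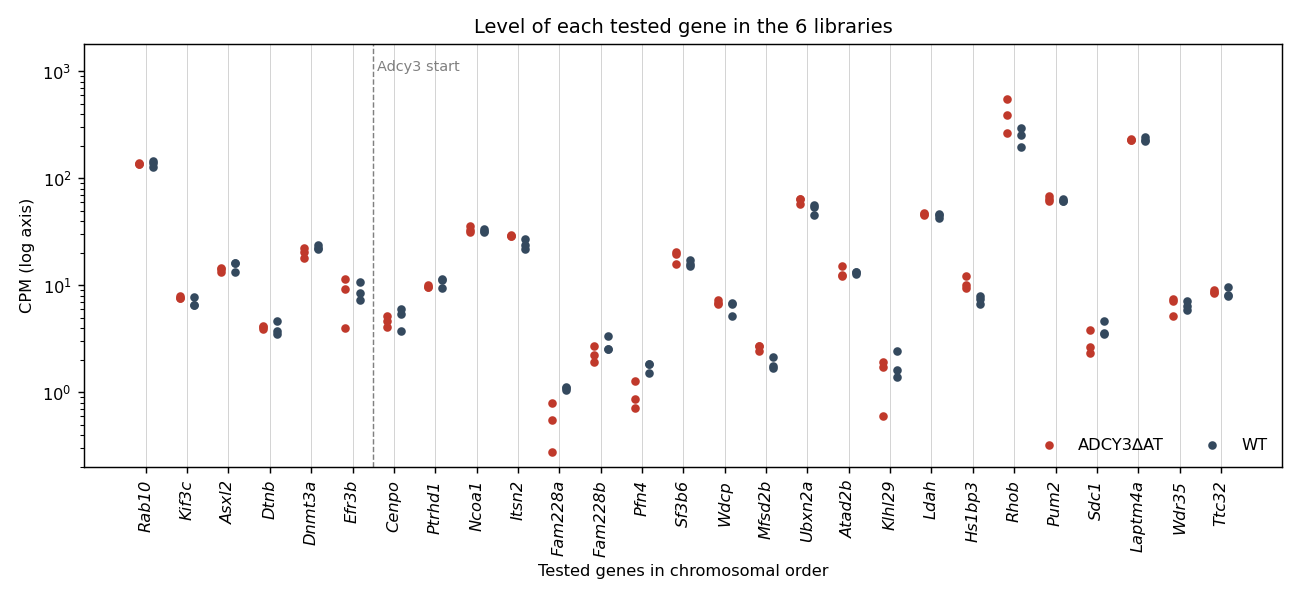
CPM on a log axis of the 27 tested genes in chromosomal order, with the 3 ADCY3∆AT libraries (red) left of the 3 WT libraries (dark) for each gene and a dashed line where Adcy3 starts. Rhob, Laptm4a and Rab10 are the 3 genes above 100 CPM, and in all but 6 genes the libraries of the genotypes overlap.

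Genes of membrane traffic, cytoskeleton and scaffolds formed the most numerous group, with 11 genes tested and 0 called. Levels per kilobase of annotated exon were highest for Rhob, at 172 CPM per kilobase in ADCY3∆AT and 106 in WT, and for Laptm4a, at 129 in ADCY3∆AT and 130.3 in WT. Rab10 followed at 39.2 in ADCY3∆AT and 39.05 in WT. Laptm4a, a membrane protein of lysosomes, held 228, 232 and 227 CPM in ADCY3∆AT and 226, 225 and 242 CPM in WT. Its log2 fold change of -0.01 had a 95% interval of -0.15 to 0.13 (adjusted p = 0.933 in edgeR). Rab10, the small GTPase that carries glucose transporter vesicles to the surface of adipocytes, held 137, 137 and 139 CPM in ADCY3∆AT and 138, 145 and 128 CPM in WT. Its fold change was 1.004 with a 95% interval of 0.902 to 1.12 (adjusted p = 0.976 in edgeR).

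Rhob (ENSMUSG00000054364, chromosome 12, 8497661 to 8500009, minus strand), a small GTPase of endosomes that is also known as an immediate early gene, had the largest positive fold change and overlapping groups. It held 555, 392.3 and 267 CPM in ADCY3∆AT and 255, 196 and 298 CPM in WT. The highest value was in ADCY3∆AT replicate 1, and ADCY3∆AT replicate 3 lay below WT replicate 3. The log2 fold change was 0.70 (standard error 0.25, 95% interval 0.13 to 1.27, adjusted p = 0.147 in edgeR, exact permutation p = 0.2, two-sided, where 0.1 is the smallest that 3 against 3 libraries allow). Leaving out 1 library gave 0.41 (adjusted p = 0.301 in edgeR) without ADCY3∆AT replicate 1 and 0.93 (adjusted p = 0.0632 in edgeR) without ADCY3∆AT replicate 3, the lowest and the highest of the 6. An edgeR fit without the filter on low counts gave 0.72 with an adjusted p of 2.96e-14, and called 2 of the 31 genes near Adcy3 it fitted, Rhob and Hs1bp3, beside 5.72% of all genes. The adjusted p of Rhob was 0.0632 to 0.301 over the other fits, and the cause of the low one was not tested. Beside it, a list of 20 immediate early genes had 2 called higher and 5 called lower by edgeR. Over all genes tested, 2.63% were called higher and 1.67% lower. The summed level of the 20 was 432.9 to 458.9 CPM in ADCY3∆AT and 619.1 to 811.6 CPM in WT. None of the 20 was at 0 in every library, and their part in the level of Rhob was not tested.

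Hs1bp3 (ENSMUSG00000020605, chromosome 12, 8313432 to 8343824, plus strand), a lipid-binding protein that holds back autophagy, had the smallest p of the genes near Adcy3. It held 12.2, 10.03 and 9.41 CPM in ADCY3∆AT and 8.03, 6.65 and 7.38 CPM in WT. Every knockout library lay above every WT library. The log2 fold change was 0.52 (standard error 0.14, 95% interval 0.19 to 0.84), a 1.43-fold higher level, and it missed the threshold in edgeR (adjusted p = 0.0796, exact permutation p = 0.1). Its p ranked 1063 among the 14332 genes tested. The adjusted p ran from 0.0165 (edgeR without the filter on low counts) to 0.174 over 15 alternative fits, and the log2 fold change from 0.41 to 0.60. The gene lies 4.10 Mb from Adcy3, and 158 of its exon bases are shared with an antisense RNA, Gm48071.

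Itsn2 (ENSMUSG00000020640, chromosome 12, 4592638 to 4713962, plus strand), a scaffold of endocytosis that also activates Cdc42, lies 379 kb from Adcy3. It held 28.6, 29.8 and 28.9 CPM in ADCY3∆AT and 24.03, 26.98 and 21.93 CPM in WT. The knockout libraries were close together and all above those of WT, with a log2 fold change of 0.26 (standard error 0.09, 95% interval 0.05 to 0.47, adjusted p = 0.144 in edgeR). On the opposite strand, 1488 exon bases of Itsn2 are shared with an antisense RNA, Gm48678, and 102 with Gm3625. Reads there would match more than 1 gene if counting did not use the strand. Pfn4 (ENSMUSG00000020639, chromosome 12, 4769022 to 4778813, plus strand), a profilin known from testis, was near the low end of what was tested, with 13, 13 and 25 counts in ADCY3∆AT and 28, 25 and 27 in WT. These correspond to 0.716, 0.864 and 1.27 CPM in ADCY3∆AT and 1.83, 1.85 and 1.52 CPM in WT. All knockout libraries lay below those of WT, and the log2 fold change was -0.85 (standard error 0.30, 95% interval -1.53 to -0.17, adjusted p = 0.141 in edgeR).

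**Figure D4:**
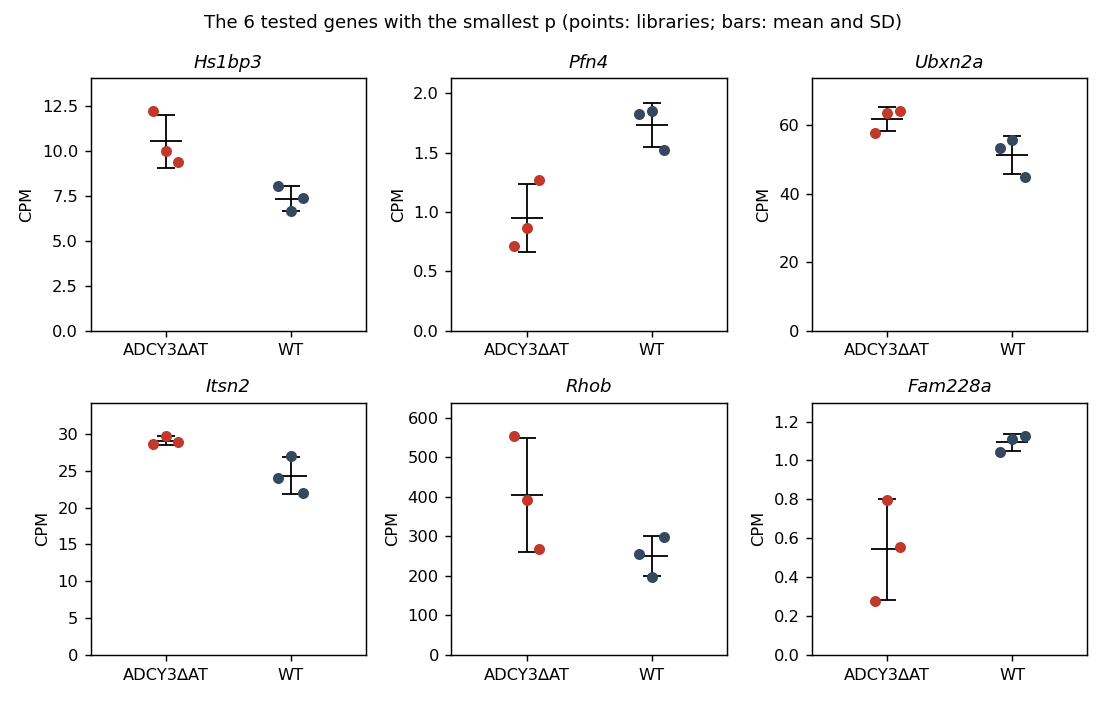
CPM of the 6 tested genes with the smallest p, on axes that start at 0, with each library as a point, ADCY3∆AT left of WT, and the mean and SD as bars. In 5 of the 6 the libraries of the genotypes do not overlap, in Rhob they do, and 0 of the 6 passed the adjusted threshold.

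The other genes of this group had overlapping libraries. Efr3b, which anchors a lipid kinase complex at the cell membrane, lies 94.2 kb upstream of Adcy3 and differed widely among knockout libraries, with 4.02, 9.23 and 11.4 CPM in ADCY3∆AT and 10.6, 8.43 and 7.33 CPM in WT. Its log2 fold change of -0.10 (95% interval -0.86 to 0.67, adjusted p = 0.896 in edgeR) turned to 0.25 without ADCY3∆AT replicate 1 and to 0.07 without WT replicate 1. Dtnb, a dystrobrevin of the dystrophin complex, held 3.91, 4.05 and 4.20 CPM in ADCY3∆AT and 3.72, 3.47 and 4.68 CPM in WT (log2 fold change 0.03, adjusted p = 0.943 in edgeR). Kif3c, a kinesin motor subunit, averaged 7.71 ± 0.187 CPM in ADCY3∆AT and 7.01 ± 0.715 CPM in WT (SD, n = 3 each). Wdr35, a subunit of the transport machinery of cilia, averaged 6.54 ± 1.20 CPM in ADCY3∆AT and 6.52 ± 0.627 CPM in WT (SD, n = 3 each). Klhl29, a kelch family member, had 11, 26 and 38 counts in ADCY3∆AT and 37, 19 and 29 counts in WT, and its 95% interval of -1.34 to 0.61 was the widest of those tested.

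Of 6 genes of RNA and protein handling, 5 were tested and 0 were called, and all 5 intervals lay inside a 1.5-fold change. Ubxn2a (ENSMUSG00000020634, chromosome 12, 4879032 to 4907705, minus strand), an adaptor of the ATPase p97, whose window with 4 cores is printed above, held 57.8, 63.7 and 64.1 CPM in ADCY3∆AT and 53.4, 55.7 and 45.0 CPM in WT. All knockout libraries lay above those of WT, by a log2 fold change of 0.27 (standard error 0.10, 95% interval 0.05 to 0.49, adjusted p = 0.143 in edgeR). Pum2, a Pumilio protein that binds messenger RNA, held 61.3, 63.5 and 68.9 CPM in ADCY3∆AT and 61.7, 64.2 and 61.8 CPM in WT (log2 fold change 0.05, 95% interval -0.12 to 0.21, adjusted p = 0.751 in edgeR). Sf3b6, which sits at the branch point in the U2 particle of the spliceosome, held 15.9, 20.4 and 19.4 CPM in ADCY3∆AT and 15.1, 17.4 and 15.7 CPM in WT, with overlapping groups (log2 fold change 0.21, adjusted p = 0.330 in edgeR). Ttc32, a tetratricopeptide repeat protein, averaged 8.78 ± 0.241 CPM in ADCY3∆AT and 8.56 ± 0.890 CPM in WT (SD, n = 3 each). Fkbp1b, which binds ryanodine receptors, had 2, 3 and 5 counts in ADCY3∆AT and 9, 1 and 12 counts in WT and was not tested.

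Among 3 genes of lipid handling, 2 were tested and 0 were called. Ldah, a hydrolase on lipid droplets, held 46.3, 45.8 and 47.5 CPM in ADCY3∆AT and 45.5, 42.4 and 46.4 CPM in WT. Its 6 libraries all lay between 42.4 and 47.5. Mfsd2b, known as the exporter of sphingosine 1-phosphate from red cells and platelets, held 2.42, 2.72 and 2.73 CPM in ADCY3∆AT and 1.70, 2.14 and 1.75 CPM in WT. Its groups did not overlap, and the log2 fold change was 0.50 (standard error 0.22, 95% interval 0.0020 to 0.99, adjusted p = 0.220 in edgeR). The 3 erythroid markers summed to 414.8, 775.7 and 633.3 CPM in ADCY3∆AT and 719.0, 445.9 and 949.9 CPM in WT, overlapping ranges, and 0 of the 3 were called by edgeR. Apob, the structural protein of lipoproteins made in liver and gut, had 3, 3 and 0 counts in ADCY3∆AT and 3, 1 and 5 counts in WT and was not tested.

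The signalling, matrix and cell surface genes were scarce in this tissue, and 1 of 4 was tested. Sdc1, a heparan sulfate proteoglycan of the cell surface, held 3.85, 2.66 and 2.33 CPM in ADCY3∆AT and 3.53, 3.55 and 4.68 CPM in WT. Replicate 1 of ADCY3∆AT lay inside the WT range and the other two libraries below it, and the log2 fold change was -0.41 (95% interval -0.98 to 0.15, adjusted p = 0.360 in edgeR). Pomc, the precursor of corticotropin, melanocortins and beta-endorphin, had 6, 8 and 7 counts in ADCY3∆AT and 5, 13 and 13 counts in WT. Gdf7, a growth factor of the BMP family, had 1, 1 and 0 counts in ADCY3∆AT and 1, 1 and 0 counts in WT. Matn3, a cartilage matrix protein, had 0 counts in all 6 libraries, which allows up to 3 counts or at most 0.203 CPM in an ADCY3∆AT library and 0.218 CPM in a WT library, for counting error only.

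The remaining 4 genes have little or no described function in adipose tissue. Fam228a (ENSMUSG00000079177, chromosome 12, 4713670 to 4738430, minus strand), whose function is not known, had the largest negative fold change, from 5, 12 and 11 counts in ADCY3∆AT and 16, 15 and 20 counts in WT. In CPM these were 0.275, 0.797 and 0.557 in ADCY3∆AT and 1.04, 1.11 and 1.13 in WT. All knockout libraries lay below those of WT, and the log2 fold change was -1.02 (standard error 0.39, 95% interval -1.92 to -0.12, adjusted p = 0.172 in edgeR). Fam228a shares 293 exon bases with Itsn2 on the opposite strand, and reads there would match both genes if counting did not use the strand. Its relative Fam228b, which shares 246 exon bases with Pfn4 and is read in the opposite direction, averaged 2.31 ± 0.406 CPM in ADCY3∆AT and 2.80 ± 0.453 CPM in WT (SD, n = 3 each). Wdcp, a protein with WD repeats and a coiled coil, averaged 6.92 ± 0.296 CPM in ADCY3∆AT and 6.24 ± 0.961 CPM in WT (SD, n = 3 each). Slc7a15, an amino acid transporter, had 0 counts in all 6 libraries, with the same limits as Matn3.

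Seen along the chromosome, all 6 tested genes upstream of Adcy3, which are Rab10, Kif3c, Asxl2, Dtnb, Dnmt3a and Efr3b, had overlapping libraries and log2 fold changes between -0.17 and 0.14. The genes whose libraries did not overlap all lay on the other side, 5 of them between 379 and 666 kb from Adcy3 (Itsn2, Fam228a, Pfn4, Mfsd2b and Ubxn2a) and Hs1bp3 at 4.10 Mb. These 6 come from 27 tested genes. Of the 27, 4 lay wholly higher in ADCY3∆AT, beside 15.1% of all genes tested, and 2 wholly lower, beside 13.9%. Itsn2 had a positive fold change, the consecutive genes Fam228a, Fam228b and Pfn4 had negative ones (-1.02, -0.27 and -0.85), and the next tested genes Sf3b6, Wdcp, Mfsd2b and Ubxn2a had positive ones (0.21, 0.16, 0.50 and 0.27). These directions are a description made after the values were seen, and 0 of the 6 passed the adjusted threshold.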

How the data were processed

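The table deposited by the authors holds estimated counts per gene, not normalized, for 6 libraries of polyadenylated RNA. Each column was matched to its sample through the number in the description. The submitters' processing notes name GRCm38, StringTie, Salmon and edgeR. The sources used here do not say whether replicates were separate mice, so p-values measure the spread between these libraries, which may be technical. Pairs of libraries of a genotype differed beyond counting error (chi-square of 6.18 to 26.8 a gene). Sample labels call the tissue interscapular, the design text inguinal; the labels were followed. A GENCODE M21 symbol was found for 54131 of 54385 rows, and 1 coding gene of the stretch was not analysed here. Hadha and Hadhb, also to be left out, lie on chromosome 5 in GENCODE M21.

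Counts were rounded, filtered (filterByExpr, minimum count 10, total 15), scaled by TMM and tested between genotypes by quasi-likelihood in edgeR 4.0.16 (R 4.3.3), two-sided, with no covariate, after a test on simulated data. P-values were adjusted over the 14332 genes tested (Benjamini-Hochberg). For single genes, log2(CPM + 0.5) was also compared over the 10 exact permutations. Alternatives were other scalings and filters, DESeq2 1.42.0, limma-voom (limma 3.58.1), a robust fit, a threshold of 0.10, the replicate number as a block, start-site distances, other pseudocounts and leaving out each library. Full values were planned for the 6 smallest p, Cenpo and the 3 nearest tested genes on each side of Adcy3, the 5 highest levels per kilobase of merged exon, the largest rise and fall, and Dnmt3a, Itsn2, Pomc, Ncoa1, Rab10, Rhob and Apob; others were added so that all 33 appear. Genes and lists were chosen with earlier results of these data known. Promoter windows of all these genes were searched, beyond the 6 planned.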

Additional observations from a re-analysis of the deposited data

How the results depend on the processing

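With 3 libraries per genotype, small differences in scarce genes were not detectable, and 6 of the 33 genes had too few counts to test. No gene near Adcy3 was called in 14 of 15 alternative fits. The fit without the filter on low counts called 2, Hs1bp3 and Rhob, both beyond 1 Mb, both among the genes given in full, and a threshold of 0.10 called 1, Hs1bp3. The other counts moved more. Over all genes, 938 were called by DESeq2, 1951 without the filter, 1375 at 0.10 and 162 to 461 when 1 library was left out. On the rest of chromosome 12, 31 were called by DESeq2, 56 without the filter, 40 at 0.10 and 7 to 15 when 1 library was left out. With the replicate number as a block there were 324 calls over all genes, 8 on the rest of chromosome 12 and 0 near Adcy3. The numbers do not pair the libraries (correlations of same-numbered libraries 0.0013, -0.0068 and -0.049). The rho of log2 fold change and distance was 0.109 to 0.295 when 1 library was left out. The median log2 fold change of the genes near Adcy3 was -0.011 with upper-quartile factors, which moved the median of all genes by -0.039, and -0.0027 without ADCY3∆AT replicate 3. Of the 27 tested genes, 16 kept their sign in all 15 fits and 11 did not. With upper-quartile factors Dtnb (-0.011) and Rab10 (-0.032) changed sign, and without the filter Laptm4a (0.013). Outside the fits that left out a library, Atad2b reached -0.011, Wdr35 -0.030 and Ttc32 -0.0065, with positive values in the report. When 1 library was left out, log2 fold changes ran from -0.31 to 0.030 for Cenpo, -0.42 to 0.25 for Efr3b, -0.052 to 0.17 for Dtnb, -0.00066 to 0.085 for Ncoa1, -0.029 to 0.024 for Laptm4a, -0.041 to 0.050 for Rab10, -0.0027 to 0.092 for Pum2, -0.076 to 0.085 for Atad2b, -0.67 to 0.016 for Klhl29, -0.081 to 0.16 for Wdr35 and -0.015 to 0.12 for Ttc32. The causes were not tested. With other pseudocounts no permutation p could pass 0.05, since 0.1 is the smallest possible.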

Other observations

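The same stretch of chromosome 12 holds 64 rows of the table that GENCODE M21 does not class as protein-coding, of which 39 had a count in some library and 2 were tested. The counts of calls among them were 0 in edgeR, 0 in DESeq2 and 0 with limma-voom, and 0 had an unadjusted p below 0.05 in edgeR. Rab10os, an antisense RNA of Rab10, held 18.4, 23.6 and 24.8 CPM in ADCY3∆AT and 18.9, 21.4 and 14.7 CPM in WT (log2 fold change 0.28, 95% interval -0.08 to 0.65, adjusted p = 0.336 in edgeR). The groups overlapped, and 143 of its exon bases lie in exons of Rab10 on the other strand. The antisense RNA 1110002L01Rik, which overlaps 2617 exon bases of Kif3c and 155 of Asxl2, held 4.07, 5.05 and 6.63 CPM in ADCY3∆AT and 6.14, 4.51 and 6.14 CPM in WT (log2 fold change -0.09, adjusted p = 0.846 in edgeR). Dnajc27, the neighbour of Adcy3 that encodes a small GTPase with a J domain, held 3.85, 7.11 and 4.66 CPM in ADCY3∆AT and 5.22, 5.03 and 4.96 CPM in WT (log2 fold change 0.03, 95% interval -0.50 to 0.56, adjusted p = 0.957 in edgeR).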
